A study of Mus musculus with 16 samples.

Results

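H3K4me3 peaks called in quiescent muscle stem cells and missing from the activated list numbered 726 of 14354, or 5.06% of the narrow peaks of the quiescent state. They were chosen by their measured positions, as quiescent peaks that overlapped no narrow peak of activated cells by 1 bp or more, and are called QSC-only peaks below. Of the quiescent peaks, 13628 overlapped an activated peak and are called shared. In the other direction, 2176 of the 15869 narrow peaks of activated cells, or 13.7%, overlapped no quiescent peak.

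The cells were muscle stem cells (satellite cells) from skeletal muscle of C57BL/6 mice, with no genetic change named in the labels, in a quiescent (QSC) or an activated (ASC) state. H3K4me3 and H3K27me3 were each profiled in 2 immunoprecipitated replicates per state with matched inputs, 16 libraries in all. The deposited values were 8 peak lists, 1 narrow and 1 broad for every mark in every state, and each list was pooled over its replicates. No difference between states therefore has a replicate check, no test between states was possible, and read depth is unknown from these files. The isolation and activation of the cells are not described in the sources used here, nor is it said whether the replicates were separate animals. Intervals below are 95% Wilson intervals over peaks, which share their libraries, so they cover counting error only.

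H3K4me3 is placed on nucleosomes at active and poised promoters, and its width and height at a gene start usually go with transcription. H3K27me3 is laid down by Polycomb repressive complex 2 and spreads over silent developmental genes, and promoters with both marks are called bivalent. Satellite cells rest outside the cell cycle in uninjured muscle and enter it when they are activated. CpG-rich promoters often hold H3K4me3 in cells where the gene is barely transcribed, whereas CpG-poor promoters gain it mainly in tissues that use the gene.

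Promoters under QSC-only peaks ranged from CpG-poor to CpG-rich, and 6 of them show this range. Each sequence runs 5′ to 3′ from 250 bases before to 50 bases after the gene start, from RefSeq on GRCm38.p6 (mm10 coordinates), with every CpG in capitals. Tef lies at chr15:81802423-81802722 on the plus strand, Il11ra1 at chr4:41760193-41760492 on the plus strand and Ypel4 at chr2:84733954-84734253 on the plus strand. Foxred2 lies at chr15:77956673-77956972 on the minus strand, Hsd11b1 at chr1:193242311-193242610 on the minus strand and Wnt7a at chr6:91411304-91411603 on the minus strand. The first 5 had a QSC-only peak of high fold, and Wnt7a is a CpG-rich promoter with H3K27me3 in both states.
Tef: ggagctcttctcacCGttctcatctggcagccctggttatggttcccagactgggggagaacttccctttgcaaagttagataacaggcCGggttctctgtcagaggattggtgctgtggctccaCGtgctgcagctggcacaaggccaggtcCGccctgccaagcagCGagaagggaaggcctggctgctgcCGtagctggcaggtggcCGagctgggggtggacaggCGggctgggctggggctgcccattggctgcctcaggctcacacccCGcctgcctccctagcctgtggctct
Il11ra1: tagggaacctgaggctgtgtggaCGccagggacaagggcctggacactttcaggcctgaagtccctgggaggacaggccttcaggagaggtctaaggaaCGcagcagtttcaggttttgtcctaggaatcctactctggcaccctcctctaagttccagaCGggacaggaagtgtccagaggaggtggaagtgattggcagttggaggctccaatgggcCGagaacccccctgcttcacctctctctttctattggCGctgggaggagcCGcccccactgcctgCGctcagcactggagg
Ypel4: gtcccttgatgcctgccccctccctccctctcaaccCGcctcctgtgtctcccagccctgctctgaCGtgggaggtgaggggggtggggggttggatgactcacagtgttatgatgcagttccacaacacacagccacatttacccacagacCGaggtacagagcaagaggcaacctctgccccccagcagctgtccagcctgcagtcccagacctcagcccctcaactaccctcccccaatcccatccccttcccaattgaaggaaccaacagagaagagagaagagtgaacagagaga
Foxred2: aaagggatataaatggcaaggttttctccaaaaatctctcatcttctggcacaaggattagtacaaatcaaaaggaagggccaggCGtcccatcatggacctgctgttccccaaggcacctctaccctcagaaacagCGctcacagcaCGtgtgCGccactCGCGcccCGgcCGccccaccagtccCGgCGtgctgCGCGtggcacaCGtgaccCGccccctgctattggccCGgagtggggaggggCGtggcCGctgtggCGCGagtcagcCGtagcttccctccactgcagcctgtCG
Hsd11b1: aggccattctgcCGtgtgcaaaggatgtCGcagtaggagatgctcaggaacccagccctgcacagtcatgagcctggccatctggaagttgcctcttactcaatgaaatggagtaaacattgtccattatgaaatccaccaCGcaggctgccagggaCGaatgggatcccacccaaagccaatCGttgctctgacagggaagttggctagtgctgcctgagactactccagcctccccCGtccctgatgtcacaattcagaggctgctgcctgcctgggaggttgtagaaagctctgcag
Wnt7a: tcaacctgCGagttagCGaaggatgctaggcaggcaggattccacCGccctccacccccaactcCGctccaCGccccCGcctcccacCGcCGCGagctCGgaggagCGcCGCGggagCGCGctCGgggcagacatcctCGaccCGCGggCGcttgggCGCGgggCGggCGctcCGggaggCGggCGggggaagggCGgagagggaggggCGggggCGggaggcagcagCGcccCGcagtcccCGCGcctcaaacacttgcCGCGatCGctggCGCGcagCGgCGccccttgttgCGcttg
The stretch of Ypel4 held 3 CpGs, Hsd11b1 6, Il11ra1 7 and Tef 9. Foxred2 held 21 and Wnt7a 42. The Il11ra1 peak began close to the start and covered 69 of the 300 bases, whereas the Ypel4 and Foxred2 peaks covered all 300.

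Across all promoters whose strand was known, those under a QSC-only peak lay between the other classes in CpG content. The 111 promoters of 106 protein-coding genes that a QSC-only peak overlapped, with no shared or activated peak there, had a median of 13 CpGs per 300 bases (interquartile range 8 to 22.5). The 10920 promoters under a shared peak had a median of 23, and the 9463 promoters with no narrow peak in either state had a median of 3. All 21263 promoters together also had a median of 13. At least 10 CpGs were present in 62.2% of the QSC-only promoters, 91.4% of the shared ones and 15.7% of those without a peak. Median GC content was 60.7%, 62.7% and 48.3%, so the QSC-only promoters differed from shared ones more in CpG number than in GC content.

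**Figure D1:**
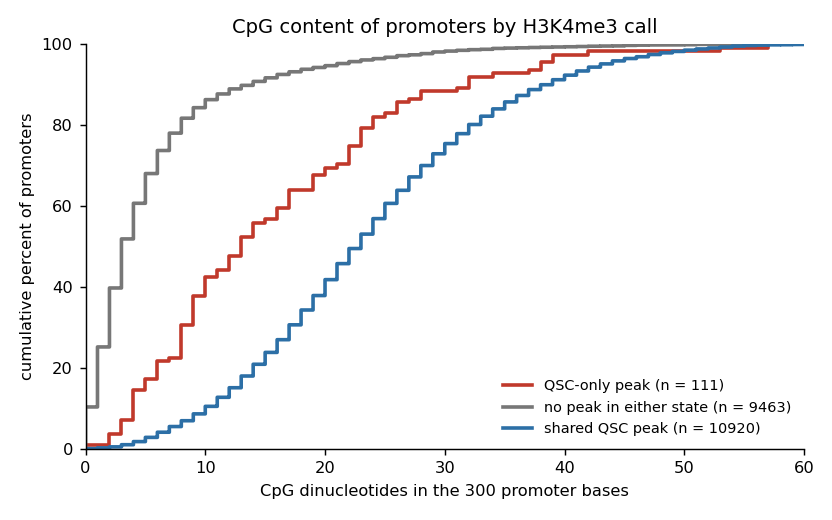
Cumulative percent of promoters (y axis) by the number of CpG dinucleotides in the 300 promoter bases (x axis) for promoters under a QSC-only peak, under a shared peak and without a narrow peak in either state. The curve of the 111 QSC-only promoters, with a median of 13, runs between those of the other classes, with medians of 23 and 3.

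CpG number also differed between QSC-only promoters with and without H3K27me3 in ASC. The 58 promoters whose 300 bases met an H3K27me3 broad peak in ASC had a median of 20.5 CpGs (interquartile range 12.25 to 26). The 53 that met none had a median of 9 (interquartile range 5 to 13). These ranges overlapped, and the same split was not made for other promoters. Wnt7a, Foxred2 and Ypel4 belonged to the first kind, Ypel4 with few CpGs. Tef, Hsd11b1 and Il11ra1 belonged to the second, and at Il11ra1 the H3K27me3 lay farther downstream, under the QSC-only peak.

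Short motifs were counted on both strands of the same 300 bases, as a description and not as binding sites. CAGCTG, an E-box bound by myogenic bHLH factors among others, was present in 25.2% of the 111 QSC-only promoters, 14.1% of the shared promoters, 17.1% of those without a peak and 15.6% of all. CACGTG, another E-box, was present in 8.11%, 10.5%, 4.64% and 7.84%, in the same order. TGANTCA, the AP-1 motif, was present in 9.01%, 3.93%, 10.5% and 6.99%. TGGGAA, part of the RBPJ motif of Notch signalling, was present in 25.2%, 22.0%, 27.3% and 24.5%, and TATAAA in 11.7%, 5.63%, 20.8% and 12.6%. The Tef and Ypel4 stretches each held CAGCTG, Tef also held CACGTG, and Foxred2 held CACGTG at 2 positions and TATAAA.

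Most QSC-only peaks were weak and narrow. The authors' fold enrichment, a linear ratio over background, ranged from 2.19 to 19.4 with a median of 4.11 (interquartile range 3.63 to 4.84), beside a median of 10.6 for shared peaks. Widths ran from 210 to 5613 bp with a median of 627.5 bp, beside 1556 bp for shared peaks. The median −log10 q was 5.45, beside 32.0, and 436 of the 726 (60.1%) had a −log10 q of at least 5. These values are linked to the rule, since a weak peak is called less easily in either state, and they are given as a description.

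The stronger the quiescent peaks, the smaller was the share that were QSC-only. Of the 833 peaks with a fold under 4, 311 (37.3%) were QSC-only, and of the 2208 peaks with a fold from 4 to under 6, 349 (15.8%). The share was 2.47% for a fold from 6 to under 8 and 0.389% from 8 to under 10. Of the 7452 peaks with a fold of at least 10, 8 (0.107%) were QSC-only. By width, the share was 32.4% under 500 bp and 0.715% from 2 kb upwards, the latter being 30 of 4198 peaks. By chromosome it ranged from 2.59% on chromosome 13 to 7.73% on chromosome 6, apart from Y, where none of 5 peaks was QSC-only.

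**Figure D2:**
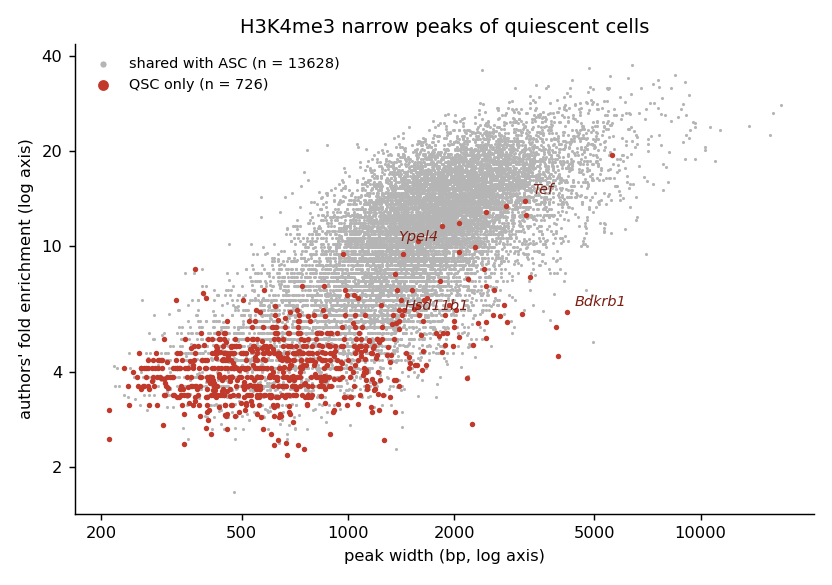
Width (x axis, bp, log axis) and the authors' fold enrichment (y axis, log axis) of the H3K4me3 narrow peaks of quiescent cells, with 1 point per peak, QSC-only peaks in red and shared peaks in grey. Red points crowd at low fold and small width, with a median fold of 4.11 and a median width of 627.5 bp, and a few, such as Tef and Ypel4, lie among the strong shared peaks.

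At the edge of the rule, the nearest QSC-only peaks lay 27 bp (Ccna2), 34 bp (in Usp2) and 53 bp (Tmem163) from an activated peak. The shared peaks with the smallest overlap met an activated peak over 32 bp (in Mta1), 40 bp (in Zfp423) and 82 bp (nearest to Phf21a). Their folds were alike, from 3.54 to 4.60 inside the rule and from 3.87 to 5.56 outside it. At Ccna2 the activated broad peak spanned the QSC-only peak with a fold of 9.92.

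Absence from the narrow list of activated cells was seldom absence from the broad list. The ASC broad list touched 628 of the 726 QSC-only peaks (86.5%, interval 83.8 to 88.8), and 482 (66.4%) lay wholly under it. It touched 99.3% of all quiescent peaks. Most of those are shared peaks, which overlap an activated narrow peak by definition, and 13626 of 13628 shared peaks were touched. For 432 peaks (59.5%) the activated broad peak held no narrow peak of activated cells. Those broad peaks were weak, with a median fold of 1.96 (interquartile range 1.80 to 2.14) and a median −log10 q of 0.617. For 196 peaks the broad peak also held an activated narrow peak elsewhere, with a median broad fold of 4.69. The remaining 98 (13.5%) were touched by no broad peak. With broad peaks of a fold of at least 3 only, 20.8% of the QSC-only peaks were touched.

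Distances to the nearest narrow peak of activated cells fell into a near and a far range. The median distance was 15290 bp (interquartile range 2334.5 to 50239 bp), with 137 peaks (18.9%) within 1 kb and 486 (66.9%) more than 5 kb away. Near peaks were mostly the 196 whose broad peak held an activated narrow peak. Both more than 5 kb from an activated narrow peak and untouched by the broad list were 86 peaks.

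**Figure D3:**
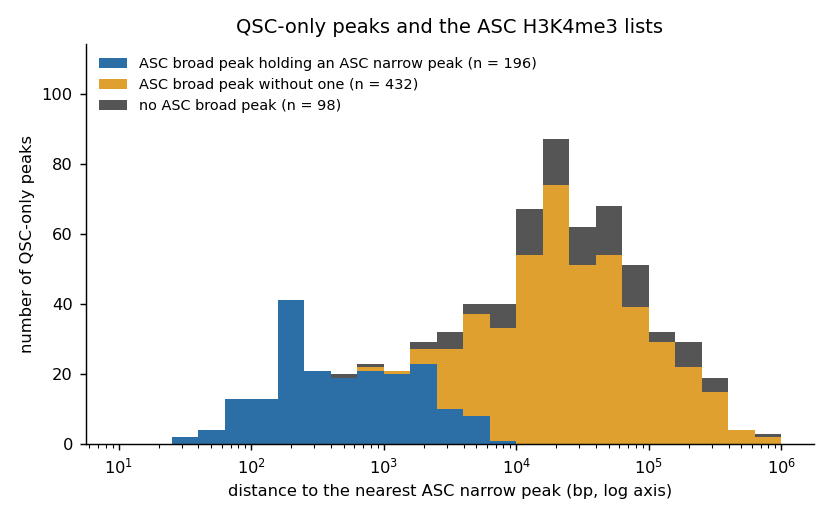
Number of QSC-only peaks (y axis) by distance to the nearest narrow peak of activated cells (x axis, bp, log axis), coloured by the ASC broad peak that touched them. The 196 peaks whose broad peak held an activated narrow peak lie at the near end, and the 432 under a broad peak without one and the 98 under none lie mostly farther away, around the overall median of 15290 bp.

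Not every call reached the deposited lists, which limits what absence from a list can show. Peak names are numbered in genomic order, and the ASC narrow list holds 15869 of 25580 numbers (62.0%). For 629 QSC-only peaks (86.6%) at least 1 number was missing between the flanking activated peaks, so a call left out of the deposited list could lie there. Its position is not known. For 93 peaks (12.8%) no number was missing, and no activated narrow peak was called between the flanking ones. The ASC list was also the longer of the pair, with 35.4 Mb covered against 24.4 Mb. Shortened by −log10 p to the covered bases of the quiescent list (7876 peaks), it left 6176 quiescent peaks without an overlap, so the count of 726 depends on the length of that list.

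QSC-only peaks lay at gene starts less often than shared peaks. Within 1 kb of a protein-coding gene start were 229 (31.5%, interval 28.3 to 35.0), against 81.5% of all quiescent peaks and 84.2% of shared peaks. Shared peaks of like strength, the 1107 with a fold inside the interquartile range of the QSC-only peaks, lay there in 52.4% (interval 49.4 to 55.3). Away from those starts, 262 QSC-only peaks (36.1%) lay in the body of a protein-coding gene, beside 7.33% of shared peaks and 21.3% of shared peaks of like fold. With starts included, the summit lay inside a protein-coding gene for 63.1% of QSC-only peaks, 86.7% of shared peaks and 63.5% of shared peaks of like fold. The remaining QSC-only peaks, as percent of all 726, were 71 (9.78%) at the start of another gene, 28 (3.86%) in the body of another gene and 136 (18.7%) between genes. The median distance to a protein-coding start was 6166 bp, and 311 peaks (42.8%) lay more than 10 kb from one, beside 9.37% of shared peaks. Starts were taken from the promoter table for 17492 of 21887 protein-coding genes, and from both ends of the gene record for the other 4395, where an end may be the 3′ end.

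At starts of known strand, QSC-only peaks were placed less strictly downstream. Of 172 QSC-only peaks there, 101 had the summit downstream of the start, with a median offset of 103.5 bp. Of 9330 shared peaks, 7985 (85.6%) had it downstream, with a median offset of 282 bp.

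At protein-coding starts, 234 genes (1.07% of 21887) had a QSC-only peak within 1 kb. In 79 of them an activated narrow peak lay within 1 kb of that start or of another start of the same gene. This leaves 155 genes (0.708%) with a QSC-only peak and no activated one at any start. In all, 11916 genes had a quiescent narrow peak at a start and 12476 an activated one. The 726 peaks had 662 different nearest protein-coding genes, and 55 genes were nearest to 2 or more. Merged over gaps of up to 5 kb the peaks formed 690 loci, of which 34 held 2 or 3 peaks.

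The highest QSC-only peak lay at no protein-coding gene but over the start of Nctc1. Nctc1 is a noncoding RNA gene of the imprinted Igf2 and H19 region. The peak at chr7:142553940-142559552 had a fold of 19.4 and was also the widest, at 5613 bp. It lay 16370 bp from the nearest activated narrow peak and 20908 bp from the nearest protein-coding start, that of Mrpl23. A broad peak of activated cells with a fold of 1.93 covered 3494 of its bases, and neither state had H3K27me3 within 5 kb.

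Tef had the second highest fold. It encodes a PAR bZIP transcription factor whose mRNA oscillates with the circadian clock. Its peak at chr15:81802522-81805707 had a fold of 13.9 and a width of 3186 bp, with the summit 379 bp downstream of the start. The activated narrow list had no peak within 4319 bp of it but did have one at another Tef start 8741 bp away, which was called in both states. The broad peak of activated cells over the QSC-only peak had a fold of 1.94. In total 9 genes had a start with a QSC-only peak and another start with an activated peak, at a median distance of 52825 bp between the starts. The others with the highest folds were Pde4b, a cAMP phosphodiesterase (fold 5.32, starts 148505 bp apart), Col18a1, the collagen XVIII chain (4.99, 52825 bp apart), and Kcnip3, a calcium-binding channel partner (4.39, 38893 bp apart).

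Genes for secreted proteins and membrane receptors were among the next peaks by fold. Vwa1, an extracellular matrix protein, had a peak of fold 13.4 and 2801 bp at an end of its gene record, chr4:155771999-155774799, 665 bp from an activated narrow peak in the gene body. Il11ra1, the interleukin 11 receptor α chain, had a peak of fold 12.8 and 2463 bp at chr4:41760424-41762886, which covered the start. Rarres2, which encodes the chemoattractant chemerin, had a peak of fold 9.92 at an end of its record, chr6:48570875-48573168. Fxyd1, a regulator of the sodium pump, had a peak of fold 9.57 at chr7:31053758-31055819. No activated narrow peak lay at a start of these 4 genes, and the activated broad peaks over them had folds between 1.69 and 2.01.

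Enzymes and proteins of other roles made up the rest. Foxred2, an oxidoreductase of the endoplasmic reticulum, had a peak of fold 11.6 at chr15:77955347-77957201. Ypel4 had a peak of fold 11.9 at chr2:84733632-84735699, inside a broad peak of activated cells with a fold of 6.43 that also reached an activated narrow peak 5154 bp away. Ggta1, which makes the α-galactose epitope, held a peak of fold 12.6 and 3209 bp in its body, 27897 bp from a start (chr2:35430344-35433552). Thbs2, the matrix protein thrombospondin 2, had a peak of fold 7.26 and 2593 bp over its start (chr17:14691911-14694503). Apart from Hsd11b1, described below, the remaining peaks of the highest folds lay at genes with provisional symbols.

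The widest QSC-only peaks added genes of moderate fold. Bdkrb1, a bradykinin receptor, had a peak of 4195 bp and fold 6.20 at an end of its record (chr12:105603031-105607225), 39051 bp from an activated narrow peak. Slc39a14, a zinc transporter, held one of 3944 bp and fold 4.49 in its body. Htra3, a secreted serine protease, held 2 in its body, of 3295 bp (fold 7.98) and 3112 bp (fold 6.09). At the Htra3 start the quiescent narrow peak had a width of 3957 bp and a fold of 15.9, and the activated one a width of 2285 bp and a fold of 8.22 within its own list. Thra, the thyroid hormone receptor α, held one of 2821 bp and fold 5.76, which lay 816 bp from an activated peak.

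**Figure D4:**
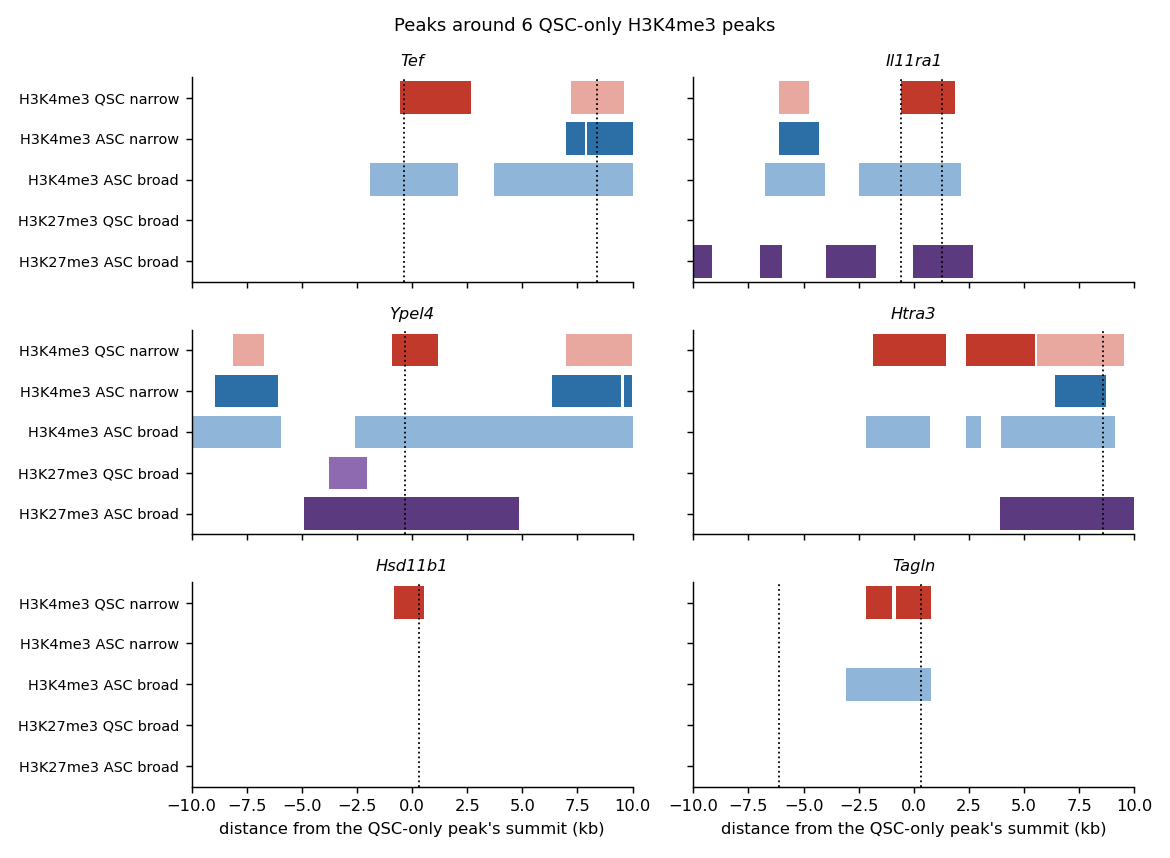
Called peaks within 10 kb of the summit of 6 QSC-only peaks (x axis, kb from the summit), with a row for each list, QSC-only peaks in dark red, shared quiescent peaks in pale red and gene starts dotted (both record ends for Tagln). Tef, Il11ra1, Ypel4, Htra3 and Tagln have an activated broad peak at the QSC-only peak and Hsd11b1 has none, and H3K27me3 of activated cells lies over the Il11ra1 and Ypel4 peaks.

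Among the 98 peaks untouched by the broad list, the highest fold belonged to Hsd11b1. It encodes the enzyme that regenerates active glucocorticoid from its inactive form. Its peak at chr1:193241198-193242578 had a fold of 7.26 and a width of 1381 bp and covered the start, 28893 bp from the nearest activated narrow peak. Lamc3, the laminin γ3 chain, had a peak of fold 5.33 and 1774 bp at an end of its record, and Asb2, the substrate-binding part of a ubiquitin ligase, one of fold 5.17 and 2067 bp over its start. Cyp1a1, a cytochrome P450 induced through the aryl hydrocarbon receptor, had one of fold 5.73 that lay 504 bp from its start. Atp2b3, a plasma membrane calcium pump, had one of fold 5.81 at 419 bp from an end of its record. Others lay away from starts, in Rere (fold 7.26) and Tes (5.56) and nearest to Sp2 (5.93) and Vwa5b1 (5.86).

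The strictest genes were those at whose QSC-only peak no activated call number was missing. They numbered 12, among them Asb2, Cox6b2, Cyp1a1, Jakmip3, Nova2, Plekhb1, Sema3b, Tagln, Thrsp, Tmem52 and Tubb4a. Their folds ran from 2.47 at Cox6b2 to 6.87 at Nova2, which encodes a neuronal splicing factor. Thrsp, a regulator of lipid synthesis, had the widest peak of the 12 at 2576 bp with a fold of 6.05. Sema3b, a secreted semaphorin, had one of 1998 bp and a fold of 5.55. This set was chosen after its values were seen.

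H3K27me3 was called over more of the QSC-only peaks in activated cells than in quiescent cells. A broad peak of H3K27me3 overlapped 119 (16.4%, interval 13.9 to 19.3) in QSC, against 11.7% of all quiescent H3K4me3 peaks. In ASC it overlapped 220 (30.3%, interval 27.1 to 33.7), against 18.9% of all. Both states covered 116 of them, ASC alone 104 (14.3%, interval 12.0 to 17.1) and QSC alone 3 (0.413%). Among all quiescent peaks, ASC alone covered 8.24% and QSC alone 1.05%. Among the 1107 shared peaks of like fold, ASC alone covered 99 (8.94%, interval 7.40 to 10.8) and QSC alone 27 (2.44%). The ASC-alone share of QSC-only peaks lay above that of the shared peaks of like fold, and the intervals did not overlap. In QSC the share of those shared peaks under H3K27me3 was 28.0% (interval 25.4 to 30.7), above the 16.4% of QSC-only peaks. In ASC it was 34.5% (interval 31.8 to 37.4), which overlapped the interval of QSC-only peaks. These pooled shares mix peaks at starts with others, and the comparison differed at starts. No replicate check exists for any of these differences.

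Other H3K27me3 lists and thresholds gave the same order of states. With H3K27me3 narrow peaks, 52 QSC-only peaks were overlapped in QSC (against 3.8% of all quiescent peaks) and 124 in ASC (against 8.99%), with 72 in ASC alone and none in QSC alone. With broad peaks of a fold of at least 3, 42 were covered in ASC alone and 2 in QSC alone. The single-state counts under these settings were made for QSC-only peaks only. Of all bases in QSC-only peaks, 13.0% lay under H3K27me3 broad peaks in QSC and 25.9% in ASC. For the bases of all quiescent peaks the shares were 5.39% and 10.4%, so the rise from QSC to ASC was not particular to QSC-only peaks. The H3K27me3 broad list covered 455.23 Mb in QSC and 516.6 Mb in ASC, and the part of that difference in the counts was not tested.

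**Figure D5:**
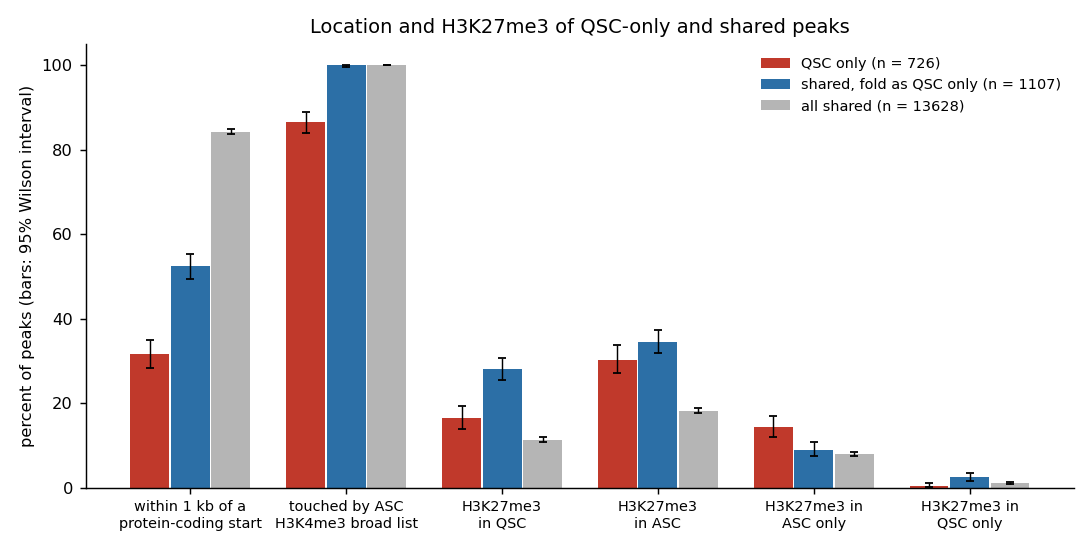
Percent of peaks (y axis, with 95% Wilson intervals) in each class (x axis) for QSC-only peaks, shared peaks of like fold and all shared peaks. H3K27me3 in ASC alone covered 14.3%, 8.94% and 7.92% of them, and 31.5%, 52.4% and 84.2% lay within 1 kb of a protein-coding start.

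The overlap with H3K27me3 was highest at gene starts. Of the 229 QSC-only peaks at protein-coding starts, 74 (32.3%, interval 26.6 to 38.6) were covered in QSC and 124 (54.1%, interval 47.7 to 60.5) in ASC. Shared peaks of like fold at starts were covered in 36.7% (interval 32.9 to 40.7) and 42.4% (interval 38.5 to 46.5). At starts the ASC share of QSC-only peaks was the higher, with intervals that did not overlap, and the QSC intervals overlapped. These intervals cover counting error over peaks of pooled lists only, and the difference was not tested. In gene bodies away from starts the QSC-only peaks were covered in 8.02% (interval 5.30 to 11.9) in QSC and 17.2% (interval 13.1 to 22.2) in ASC. The shared peaks of like fold there were covered in 21.2% (interval 16.5 to 26.8) and 29.7% (interval 24.2 to 35.8), above the QSC-only peaks in both states. Between genes the QSC-only peaks were covered in 9.56% and 23.5%, and the shared peaks of like fold in 16.4% and 24.0%.

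Several of the strongest QSC-only peaks had H3K27me3 in activated cells alone. The Ypel4 peak had all its 2068 bp under a broad H3K27me3 peak in ASC and none in QSC. At Il11ra1 it was 1907 of 2463 bp, at Vwa1 1880 of 2801 bp, at Foxred2 1428 of 1855 bp and at Fxyd1 959 of 2062 bp, each with 0 in QSC. The H3K27me3 peaks themselves were weak, with folds from 1.53 at Il11ra1 to 3.69 at Ypel4. The peaks at Lamc3 (1774 bp) and Cyp1a1 (1032 bp) were wholly covered in ASC and uncovered in QSC, and that at Asb2 over 1316 bp. The peaks at Nctc1, Tef, Rarres2, Hsd11b1, Thbs2 and Bdkrb1 had none in either state. Thus 5 of the 10 QSC-only peaks of highest fold were under H3K27me3 in ASC alone. That share was 14.3% over all QSC-only peaks and 8.24% over all quiescent peaks, and 10 peaks are too few for a rule about strong ones.

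Counting 5 kb on each side gave the same order. H3K27me3 lay within 5 kb of 331 QSC-only peaks (45.6%) in QSC and 388 (53.4%) in ASC. Of all quiescent peaks, 54.5% and 53.7% had it, so the QSC-only peaks were near that share in ASC and below it in QSC. In QSC alone were 33 (4.55%, against 7.94% of all quiescent peaks) and in ASC alone 90 (12.4%, against 7.15%). Among shared peaks of like fold the order was the other way, with 704 in QSC and 681 in ASC. Those with most H3K27me3 in ASC and none in QSC were Tmem51 (10850 bp), the start of Kcnh2, the hERG potassium channel gene (10687 bp), and the start of Crispld2, which encodes a secreted protein (10406 bp). They were followed by peaks in Bach2 (8383 bp), a transcriptional repressor, and Wnt9a (7012 bp), and by peaks nearest to Itga6 (6638 bp), in Htra3 (6572 bp) and nearest to Sik1 (6471 bp). In the other direction the amounts were smaller, from 3380 bp near A2ml1 and 3241 bp near Tmem182 to 2182 bp at the start of Ifit1, an interferon-induced gene. Between them were peaks near Aldh8a1 and in Arhgef33, Abcc4 and Dock8, at 2216 to 2515 bp.

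The 19 gene lists examined held 527 different genes, of which 19 (3.61%) had a QSC-only peak at a start, 13 (2.47%) had it with no activated peak there, and 39 (7.40%) had a QSC-only peak summit in the body or within 1 kb. Over all protein-coding genes these shares were 1.07%, 0.708% and 2.31%. The lists were chosen with earlier results of these data known, so the higher shares may come from that choice and are a description only. The 19 genes at starts had H3K27me3 on the peak in 8 cases in QSC and in 15 in ASC, with 4 covered in neither.

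Of 38 quiescence and identity genes, 36 had a narrow peak at a start in each state. In the body, 6 had a QSC-only peak, against 2.31% of all protein-coding genes, in a list chosen with earlier results known. None had one at a start, where the share over all protein-coding genes was 1.07%. Fgfr1, an FGF receptor, held 4 in its body and was nearest to 1 more, 52403 bp away, the most of any gene, with folds from 3.63 to 6.77. Heyl, a Notch target, held one of fold 6.29 at 6181 bp from an end of its record, and Chrdl2, a secreted BMP antagonist, one of fold 5.55 and 1045 bp. Sdc4, a heparan sulphate proteoglycan of satellite cells, held one of fold 4.84 at 10195 bp from its start. Pax7, the transcription factor that marks these cells, held one of 280 bp and fold 3.87 at 27318 bp from its start, with no activated broad peak over it. Fgfr4, another FGF receptor, held one of fold 3.87 that lay 174 bp from an activated peak. None of these peaks had H3K27me3 over it in either state.

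Gene length differs between these sets. The median gene record was 17.2 kb over all protein-coding genes, 33.3 kb over the 505 genes with a QSC-only peak in the body and 19.3 kb over the quiescence list. An activated narrow peak was called at a start of 279 of the 505 (55.2%). After Fgfr1, the genes nearest to most peaks included Bmp4, Il17ra, Plxnd1, Sik1 and Vgll4, with 3 each. Those of Il17ra, the interleukin 17 receptor A, Plxnd1, a semaphorin receptor, and Vgll4, a cofactor of TEAD factors, lay in the gene body. Those of Bmp4, a BMP ligand, lay at least 165229 bp from it.

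Signalling genes had QSC-only peaks mostly in their bodies. Of 26 Notch genes none had one at a start and 3 had one in the body: Notch1, a receptor (fold 3.55, 15370 bp from its start), Maml3, a coactivator (3.39 at both of its peaks), and Heyl. Of 40 Wnt genes, Wnt7a had a QSC-only peak at its start with no activated peak (fold 3.99, 657 bp) and was covered by H3K27me3 in both states. Wnt5b, a noncanonical ligand, had one of fold 3.63 at a start 94961 bp from a start with an activated peak. Wnt9a held one of fold 3.18 in its body, wholly under H3K27me3 in ASC alone. Of 36 genes of the BMP and TGF-β pathways, Bmp6, a ligand (fold 5.08), and Chrdl2 had one in the body. None of 33 immediate early and stress genes and none of 27 myogenic regulators had one at a start or in the body. The shares over all protein-coding genes were 1.07% and 2.31%, so an absence from lists of this size is near them. The immediate early and stress genes were also short, with a median record of 3.4 kb.

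Some matrix, transport, respiratory chain and cytoskeleton genes had QSC-only peaks at starts. Over all protein-coding genes the shares were 1.07% at a start, 0.708% there with no activated peak and 2.31% in the body. These lists were chosen with earlier results of these data known. Of 44 matrix genes, Col6a6, a collagen VI chain (fold 3.15), and Eln, elastin (fold 3.34, at an end of its record), had one with no activated peak, and Col18a1 had one at one of its starts. Sparc, a matrix glycoprotein, held one of fold 4.60 in its body. Of 36 ion transport genes, Atp2b3 and Slc8a2, a sodium-calcium exchanger (fold 3.83), had one, and Cacna1a, a calcium channel subunit, held one of fold 4.62 in its body. Of 15 respiratory chain genes of tissue-restricted isoforms, 3 had one: Cox4i2 (fold 3.20) and Cox6b2 (2.47), subunits of cytochrome c oxidase, and Ndufa4l2 (5.08), a hypoxia-induced paralogue of Ndufa4. In this list, 11 genes had a narrow peak at a start in QSC and 8 in ASC. Of 25 tubulin and cytoskeleton genes, Tubb4a, a neuronal β-tubulin (fold 4.36), and Nefm, a neurofilament (4.22), had one. In ASC all 9 of these genes with a QSC-only peak and no activated peak at a start had H3K27me3 on the peak. The peaks at Nefm, Cox4i2, Slc8a2 and Col6a6 had it in QSC too, at Col6a6 over 40 of 448 bp. Among all QSC-only peaks at protein-coding starts, 32.3% were covered in QSC and 54.1% in ASC.

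Of 43 cell cycle genes, 3 had a QSC-only peak at a start or in the body. Over all protein-coding genes the shares were 1.07% at a start and 2.31% in the body. Ccna2, cyclin A2 (fold 3.55), and Top2a, topoisomerase IIα (5.08), had a QSC-only peak within 1 kb of a start, 27 and 249 bp from an activated peak, under activated broad peaks with folds of 9.92 and 11.2. Cdk6, a cyclin-dependent kinase of G1, held one of fold 4.11 in its body, 86511 bp from an activated narrow peak and under no activated broad peak. Of the 43 cell cycle genes 37 had a narrow peak at a start in QSC and 42 in ASC, and none was called in QSC alone through a QSC-only peak. Of 39 sarcomere and differentiated muscle genes none had a QSC-only peak at a start, against 1.07% of all protein-coding genes. In a list of this size an absence is near that share, and the list does not hold every muscle gene. Outside it, Mylk2, Stac3 and Pygm had a QSC-only peak at a start and no activated one. Within the list, Mylpf, a fast myosin light chain, and Tnnt1, slow troponin T, had a QSC-only peak in the body or within 1 kb. The peak in Mylpf was nearest to the start of the neighbouring gene Tbc1d10b, at 753 bp. It lay 807 bp from an activated narrow peak, under an activated broad peak with a fold of 9.57.

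Markers of other cell types were examined because sorted or cultured cells can hold other cells. Of 17 pericyte and smooth muscle markers, 11 had a narrow peak at a start in QSC and 9 in ASC, and 2 had a QSC-only peak there with no activated one. These were Tagln, transgelin, with a peak of fold 6.46 and 1586 bp at an end of its record and a second of fold 3.11 beside it, and Myh11, smooth muscle myosin, with 2 peaks of fold 4.35. Smtn, smoothelin, held 2 in its body with folds of 4.79 and 4.28. None of 18 endothelial, 20 immune and 18 fibro-adipogenic markers had a QSC-only peak at a start or in the body. For all protein-coding genes the shares were 1.07% at a start, 0.708% there with no activated peak and 2.31% in the body. In lists of this size an absence is near those shares and does not set cell types apart. Narrow peaks at starts in QSC and ASC were called for 5 and 6 endothelial markers, 1 and 1 immune markers and 5 and 11 fibro-adipogenic markers. Of 13 Schwann markers Ngfr held one in its body (fold 3.87). The part of other cells in the peaks at Tagln, Myh11 and Smtn was not tested.

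Some regulators of neural lineages had QSC-only peaks, and these lay under H3K27me3. Over all protein-coding genes the shares with a QSC-only peak were 1.07% at a start, 0.708% there with no activated peak and 2.31% in the body. Of 40 such genes, Sox3 (fold 4.35) had one with no activated peak, and Pou4f1 (4.35) and Lmx1b (5.08) had one 778 and 441 bp from an activated peak. Emx1 (4.11) and Barhl1 (3.34) held one in the body. All 5 had H3K27me3 on the peak in both states, over 92 of 466 bp at Sox3 in QSC. Over the list, 17 genes had a narrow peak at a start in QSC and 25 in ASC. Of 20 ubiquitously expressed genes, none had a QSC-only peak at a start, against 1.07% of all protein-coding genes. The peak near Gapdh lay at the neighbouring gene Iffo1.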

How the data were processed

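The authors deposited narrow and broad peak lists for H3K4me3 and H3K27me3 in QSC and ASC, 8 in all, each named in the labels for both replicates of its group and treated as pooled. Per the labels' protocols, chromatin was immunoprecipitated, tagmented (ChIPmentation) and sequenced with paired reads of 75 bp on a NextSeq 500. Per the submitters' processing notes, reads were handled on mm10 with MACS2 2.1.1, Bowtie2 2.3.2, bedtools 2.26.0, Picard 2.9.2, Trimmomatic 0.36, SAMtools 1.3 and bcl2fastq 2.19, with settings that the sources used here leave out. Per peak, the deposited values are a fold enrichment, which is a linear ratio, a −log10 p-value and a −log10 q-value. Read depth is unknown from these files.

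Overlaps of at least 1 bp were computed in Python 3.11.15 with pandas 2.3.3 and numpy 2.4.6, and the overlap code was tested on simulated intervals. Genes, starts and sequences came from RefSeq tables for GRCm38.p6. Windows were 1 kb either side of a start, or of both record ends where the strand was not given. All 548 list symbols, counted per list, matched. Shares carry 95% Wilson intervals (scipy 1.17.1). No test was made, since lists are pooled. The members and lists were chosen with earlier results of these data known.

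Genes were named by a rule: the 10 peaks of highest fold, the 10 widest, the 10 of highest fold without an ASC broad peak and the 10 at starts, genes with most peaks, list genes, the 8 peaks with most H3K27me3 within 5 kb in a single state in each direction, and the 3 peaks on each side of the overlap threshold. Provisional symbols are not described and some loci are not reported here, and the choice of Thbs2, of the genes with several starts and of the 12 strictest genes was made with their values known. Alternatives were other thresholds, overlaps, windows and lists.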

Additional observations from a re-analysis of the deposited data

How the results depend on the processing

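Of 66 alternative values for 8 results, 31 stayed within their interval or range and 35 moved; none changed the order of H3K27me3 in ASC above QSC. With a −log10 q of at least 5 there were 436 QSC-only peaks, 89.0% touched by the ASC broad list, with a median fold of 4.61, a median width of 718.5 bp, 35.1% at protein-coding starts, 13.5% under H3K27me3 in QSC and 101 genes called in QSC alone. Counting an activated peak within 1 kb as shared gave 83.7% touched and 28.0% at starts. Requiring 50% overlap gave a median fold of 4.34 and a median width of 672 bp. With the ASC list shortened to equal covered bases there were 6176 peaks, 98.4% touched, with a median fold of 6.32 and width of 1071 bp, 67.0% at starts, 21.6% and 34.2% under H3K27me3 in QSC and ASC, and 3655 genes.

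Chosen after seeing the data, the 93 peaks without a missing activated call number were touched in 62.4%, with a median fold of 4.35 and width of 554 bp, 28.0% at starts, 9.68% under H3K27me3 in QSC and 12 genes. H3K27me3 narrow lists gave 7.16% and 17.1% in QSC and ASC, and broad peaks with a fold of at least 3 gave 4.41% and 9.92%. The share at starts was 27.1% with windows of 500 bp, 38.3% with 2.5 kb, 41.3% with all annotated genes and, chosen after seeing the data, 23.7% with strand-known starts only. ASC broad peaks with a fold of at least 3 touched 20.8%. The causes of these moves were not tested.

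No paired analysis was possible because the lists are pooled over replicates, and leaving out a replicate could not be run for the same reason.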

Other observations

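Some small groups were looked at after their values had been seen and are given as values. Of 20 circadian clock and PAR bZIP genes, all 20 had a narrow peak at a start in QSC and 19 in ASC. Tef (fold 13.9) and Dbp, another PAR bZIP factor (7.02), had a QSC-only peak within 1 kb of a start. The Dbp peak lay 165 bp from an activated narrow peak. Rora, a nuclear receptor, held one of fold 3.87 in its body.

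QSC-only peaks overlapped 3 microRNA hairpins. The mature sequences below, from RefSeq on GRCm38.p6, run 5′ to 3′ with the seed (bases 2 to 8) in capitals, and the 3 seeds differ.
mmu-miR-210-3p: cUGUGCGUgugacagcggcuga
mmu-miR-26a-5p: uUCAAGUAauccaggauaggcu
mmu-miR-7671-3p: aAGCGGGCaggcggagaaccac
Mir210, a hypoxia-induced microRNA gene (mature 3p arm at chr7:141221407-141221428, minus strand), lay in a peak of fold 3.52, 4116 bp from an activated narrow peak. Mir26a-1 (5p arm at chr9:119031811-119031832, plus strand), inside Ctdspl, lay in a peak of fold 3.33, 60188 bp from an activated peak. Mir7671 (3p arm at chr11:53763597-53763618, minus strand), nearest to Irf1, lay in a peak of fold 6.05 and 1120 bp. None of these peaks had H3K27me3 over it in either state. The genes Dbp, Rora, Mylk2, Stac3, Pygm and the microRNAs lie outside the naming rule.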
